A study of Mus musculus with 10 samples.

Results

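The proteasome genes described here are the 50 protein-coding genes, of 55952 genes measured, whose symbols begin with Psma, Psmb, Psmc, Psmd, Psme, Psmf or Psmg. RNA was measured by sequencing in kidneys of C57BL/6 mice, an inbred strain. There were 5 libraries from mice held at 4200 m (hypoxia) and 5 from mice held at 400 m (control), and both groups were held for 30 days. No allele, sex or age is given in the labels used here, and the labels do not state whether each library is a separate animal. The p-values therefore reflect variation among these libraries, which may be technical. Each library held 16561672 to 17845464 reads assigned to genes. For a transcript of 1 kb, 3 reads corresponded to 0.165 to 0.183 FPKM (reads scaled to transcript length and library size), and such floors cover counting error only.

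The proteasome is the protease that degrades ubiquitin-tagged proteins. Its 20S core is a barrel of alpha rings, which gate the entrance, and beta rings, of which Psmb5, Psmb6 and Psmb7 encode the proteolytic subunits. The 19S cap binds ubiquitin chains and unfolds substrates with a ring of ATPases, and together they form the 26S proteasome. In cells exposed to interferon, Psmb8, Psmb9 and Psmb10 replace the constitutive proteolytic subunits in the immunoproteasome. In the kidney, as in other tissues, the constitutive form is present in all cell types.

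Kidney markers were present in every library, with 6 proximal tubule markers summing to 920 to 1943 FPKM in hypoxia and 1517 to 1925 FPKM in controls. The sum of 4 retina markers was 0.122 to 0.428 FPKM in hypoxia and 0.301 to 0.656 FPKM in controls. A pair of hypoxia libraries stood apart. Replicate 5 had a median correlation of 0.853 with the rest of its group across genes, and replicate 4 had 0.959, against 0.968 to 0.971 for hypoxia replicates 1 to 3 and 0.979 to 0.982 for controls. B cell markers (8 genes) summed to 415 FPKM in hypoxia replicate 5, to 2.60 to 3.10 FPKM in the other hypoxia libraries and to 1.17 to 2.11 FPKM in controls. Myeloid markers (8 genes) summed to 1025 FPKM in hypoxia replicate 5, 159 FPKM in replicate 4 and 65.8 to 95.4 FPKM in replicates 1 to 3, against 58.8 to 81.1 FPKM in controls. Markers of the adrenal cortex (6 genes) summed to 1045 FPKM in hypoxia replicate 4 and 12.0 FPKM in replicate 5, to 1.49 to 1.68 FPKM in replicates 1 to 3 and to 0.920 to 1.55 FPKM in controls. Fat markers (6 genes) summed to 657 FPKM in hypoxia replicate 4, to 75.9 to 148 FPKM in the other hypoxia libraries and to 63.8 to 175 FPKM in controls. No marker on these lists was at 0 in all libraries. Results are therefore given with all 10 libraries and without hypoxia replicates 4 and 5. Leaving out that pair did not remove every difference in marker sums between the groups. Podocyte markers (3 genes) summed to 99.8 to 132 FPKM in hypoxia replicates 1 to 4 and 61.3 FPKM in replicate 5, against 67.7 to 86.5 FPKM in controls. Pancreas acinar markers (8 genes) summed to 23.2 to 29.9 FPKM in hypoxia replicates 1 to 4 and 57.2 FPKM in replicate 5, against 32.4 to 49.6 FPKM in controls. These sums and that of B cell markers did not overlap between hypoxia replicates 1 to 3 and the controls, while those of the other 9 lists did. The part that these cell types play in the results was not tested.

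Of the 31 constitutive subunits of the 26S proteasome among the 50 genes, 10 fell in hypoxia kidneys. They were 8 of the 17 genes of the 19S cap and 2 of the 7 of the beta ring, Psmb5 and Psmb7. None of the 7 alpha genes and none of the 7 assembly factors passed the test. Adrm1 and Sem1 also encode parts of the cap, but are not among the 50 and are described below with its partners. An average of 0.5 FPKM or more was reached by 47 of the 50 genes, and these were tested. With limma on log2(FPKM + 0.5) and Benjamini-Hochberg adjustment over all 15264 tested genes, 11 fell in hypoxia at an adjusted p under 0.05, none rose and 36 did not pass. Lower calls were made for 7.79% of all tested genes and higher calls for 3.66%, while the 11 genes are 23.4% of the 47. At an unadjusted p under 0.05, 14 were lower and 3 higher, and no share over all genes is given here for that threshold. On the recovered reads, limma voom called 11 lower and 0 higher, beside 1137 lower and 537 higher over all 15264 tested genes. The median log2 fold change of the 47, hypoxia minus control, was -0.12, beside 0.012 for all tested genes. When hypoxia replicates 4 and 5 were left out, 10 fell and none rose, where 7.75% of the 14724 genes then tested fell and 4.53% rose. Of these 10, 8 had also fallen with all 10 libraries, and the median log2 fold change was -0.13. FPKM is relative to a library size. The implied size was 0.998 to 1.10 times the reads assigned to genes in hypoxia and 0.949 to 1.03 times in controls. A size under the reads assigned is not a plain total of mapped reads. What set this size, and its part in the calls, was not tested. When values were rescaled without the 11 genes that took at least 1% of any library, the median of all genes moved up by 0.070, the calls over all genes were 929 higher and 783 lower in place of 559 higher and 1189 lower, and 6 proteasome genes, all of them constitutive subunits, were lower and 2 higher (Psma5 and Psme1). In bulk tissue, fewer cells that express a gene and less of its RNA per cell cannot be told apart.

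**Figure D1:**
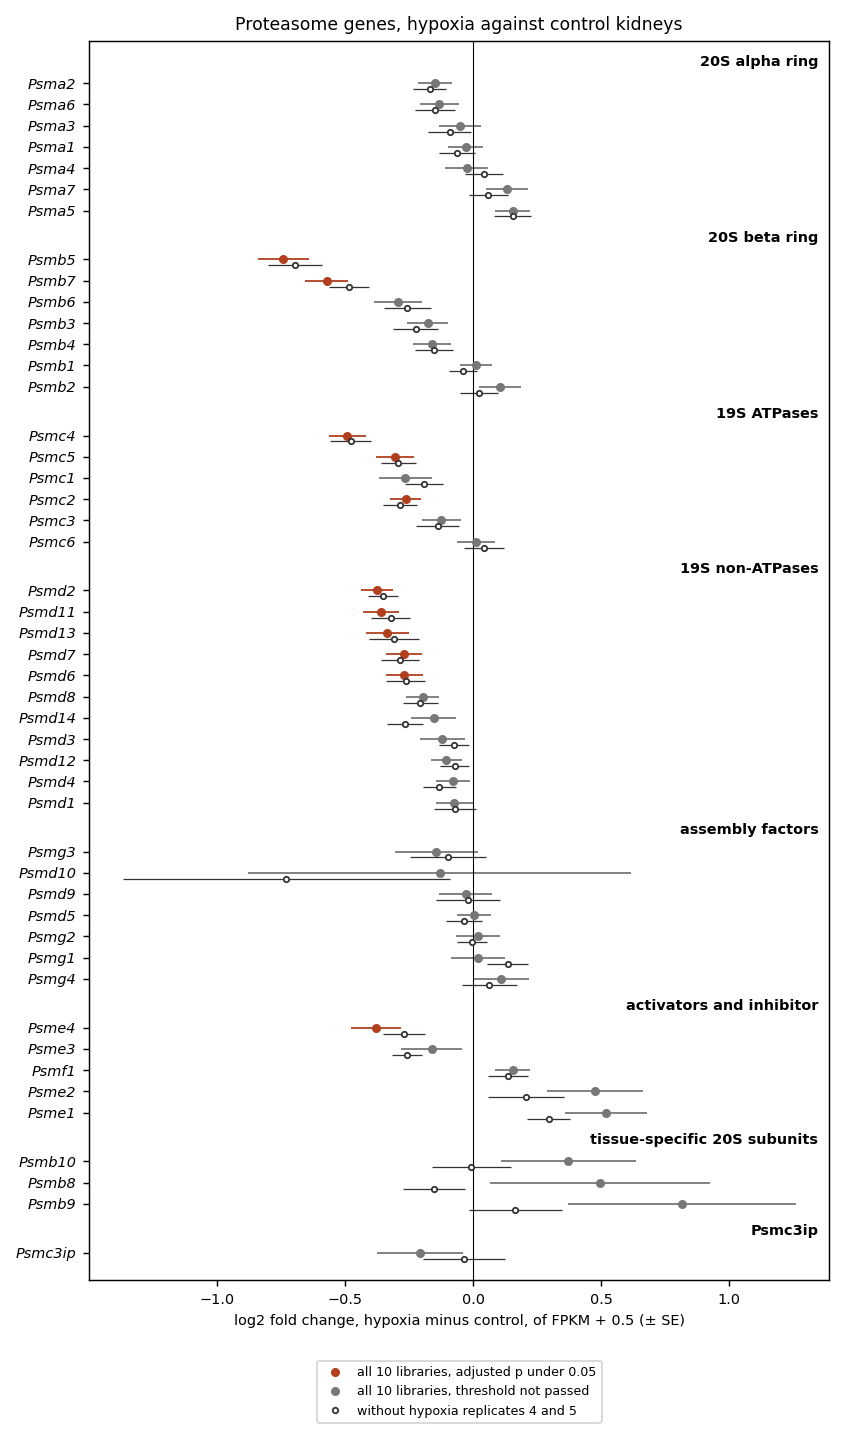
Log2 fold change of FPKM + 0.5, hypoxia minus control, with its standard error, for the 47 tested genes grouped by role. Filled points use all 10 libraries (red where the adjusted p is under 0.05, grey otherwise) and open points leave out hypoxia replicates 4 and 5. The red points lie at negative values, from -0.74 for Psmb5 to -0.26 for Psmc2, and none of the 7 alpha subunits is red.

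The beta ring held the gene with the largest decrease among the 47. Psmb5 (chr14:54614119-54618022, minus strand, GRCm38) encodes the subunit with chymotrypsin-like activity, the target of the drug bortezomib. Its FPKM in hypoxia replicates 1 to 5 was 68.2, 78.6, 65.1, 70.0 and 60.4, against 118, 134, 113, 98.4 and 111 in control replicates 1 to 5. Every hypoxia library lay below every control library, and the hypoxia mean was 59.6% of the control mean (68.4 ± 6.73 and 115 ± 12.8 FPKM, SD, n = 5 each). The log2 fold change was -0.74 (SE 0.101, limma adjusted p = 0.00242), and -0.69 without hypoxia replicates 4 and 5 (adjusted p = 0.00531). Psmb7 (chr2:38588036-38644087, minus strand) encodes the subunit with trypsin-like activity. It had 16.8, 17.6, 15.7, 14.99 and 13.6 FPKM in hypoxia, against 22.9, 26.2, 25.0, 22.0 and 21.9 FPKM in controls. These groups did not overlap either, and the log2 fold change by limma was -0.57 (SE 0.0844, adjusted p = 0.00354), or -0.48 with hypoxia replicates 4 and 5 left out (adjusted p = 0.00697).

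Psmb6, which encodes the remaining proteolytic subunit with caspase-like activity, had 35.1, 42.3, 35.5, 39.4 and 31.3 FPKM in hypoxia, against 46.7, 49.1, 47.1, 40.1 and 42.1 FPKM in controls. Hypoxia replicate 2 lay above control replicates 4 and 5, so the groups overlapped, and the log2 fold change of -0.29 (SE 0.0945) did not pass (limma adjusted p = 0.0701). It passed when hypoxia replicate 2 was left out (adjusted p = 0.0388). The other beta subunits have structural roles, and none of them passed the test. Psmb3 had a log2 fold change of -0.18 (limma adjusted p = 0.176), Psmb4 of -0.16 (adjusted p = 0.181), Psmb1 of 0.011 (adjusted p = 0.924) and Psmb2 of 0.10 (adjusted p = 0.415). Psmb4, with 60.9 ± 2.64 FPKM in hypoxia and 68.2 ± 5.22 FPKM in controls (SD, n = 5 each), and Psmb5 were the most abundant beta genes in both groups. In all, 2 of 7 beta genes fell, and their median log2 fold change was -0.18. Some reads of Psmb7 cannot be assigned with certainty, because it overlaps Nek6 on the opposite strand (1.72 FPKM in hypoxia, 1.95 FPKM in controls) and the strand setting of the counting is not given in the sources used here.

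The promoters of the gene with the largest decrease, of a proteolytic neighbour in the ring that did not pass, and of the ATPase gene with the largest decrease are printed for comparison. They come from RefSeq (GRCm38.p6), 5′ to 3′ on the gene's strand, from 250 bases before the transcription start to 50 bases after it. Psmb5 is at chr14:54617946-54618245 on the minus strand, Psmb6 at chr11:70525107-70525406 on the plus strand and Psmc4 at chr7:28050043-28050342 on the minus strand. Capitals mark matches to TGACNNNGC, the core of the antioxidant response element, which NFE2L1 and NFE2L2 bind and through which NFE2L1 is known to induce proteasome genes.
Psmb5: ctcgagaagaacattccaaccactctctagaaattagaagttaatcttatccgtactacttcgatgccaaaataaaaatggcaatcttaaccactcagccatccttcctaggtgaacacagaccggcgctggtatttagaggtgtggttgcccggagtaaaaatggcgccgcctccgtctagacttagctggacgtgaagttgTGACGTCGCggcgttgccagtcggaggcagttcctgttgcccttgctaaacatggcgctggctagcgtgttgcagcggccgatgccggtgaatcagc
Psmb6: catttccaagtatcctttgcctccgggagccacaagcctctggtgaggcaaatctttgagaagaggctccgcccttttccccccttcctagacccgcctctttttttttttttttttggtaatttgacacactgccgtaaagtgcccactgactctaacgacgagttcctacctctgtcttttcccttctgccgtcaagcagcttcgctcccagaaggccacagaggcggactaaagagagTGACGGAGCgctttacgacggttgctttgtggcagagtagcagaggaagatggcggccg
Psmc4: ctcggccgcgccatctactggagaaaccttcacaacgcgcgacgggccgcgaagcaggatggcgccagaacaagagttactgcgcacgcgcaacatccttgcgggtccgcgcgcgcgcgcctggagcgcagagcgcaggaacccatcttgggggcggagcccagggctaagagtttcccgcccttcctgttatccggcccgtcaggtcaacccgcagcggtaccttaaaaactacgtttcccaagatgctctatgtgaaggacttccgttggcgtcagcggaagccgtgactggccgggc
Psmb5 had its match 47 bases before the start, Psmb6 had one 9 bases before it, and Psmc4 had none in this window. A window was found for 42 of the 50 genes. On either strand, TGACNNNGC was in 6 of these 42 windows (14.3%) and in 12.4% of all 32851 windows. Among genes that fell, 2 of the 9 with a window had a match, against 4 of 31 tested genes that did not pass. A CCAAT box, searched as CCAAT on both strands, was in 15 of 42 windows (35.7%), against 37.4% of all windows. The motifs do not overlap in the printed sequences, and a match is a description of letters, not a site.

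The alpha ring had no gene past the threshold in 7 tested. Log2 fold changes ran from -0.15 for Psma2 to 0.15 for Psma5, with a median of -0.028, and 1 gene (Psma5, higher) had an unadjusted p under 0.05. limma voom on recovered reads called 0 of the 7. Psma6, the most abundant alpha gene, averaged 62.5 ± 2.88 FPKM in hypoxia and 68.6 ± 5.44 FPKM in controls (SD, n = 5 each, limma adjusted p = 0.273). Psma4 averaged 51.1 ± 4.26 FPKM in hypoxia and 51.9 ± 3.80 FPKM in controls (adjusted p = 0.864). Psma5 averaged 32.8 ± 2.37 FPKM in hypoxia and 29.4 ± 1.39 FPKM in controls (adjusted p = 0.165), and it passed as higher under the rescaling without the most abundant genes (log2 fold change 0.23, adjusted p = 0.0451). Of the remaining alpha genes, Psma1 averaged 34.1 ± 2.42 FPKM in hypoxia and 34.7 ± 1.48 FPKM in controls, and Psma2 23.3 ± 1.56 FPKM in hypoxia and 25.9 ± 1.47 FPKM in controls. Psma3 averaged 19.6 ± 1.67 FPKM in hypoxia and 20.3 ± 1.75 FPKM in controls, and Psma7 32.5 ± 2.81 FPKM in hypoxia and 29.6 ± 2.51 FPKM in controls (SD, n = 5 each). None of these 4 passed, with limma adjusted p from 0.173 for Psma2 to 0.807 for Psma1. Psma5 has a pseudogene, Psma5-ps, with 4.72 FPKM in hypoxia and 5.48 FPKM in controls, so its reads are uncertain. Psma2 overlaps AW209491 on the same strand (5.37 FPKM in hypoxia, 6.31 FPKM in controls), so its reads are uncertain too. Under the same rescaling the median of the alpha ring was 0.051 and 5 of its 7 genes were positive, in place of 2 of 7.

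The 19S ATPases form the unfolding ring that sits on the alpha ring, and 3 of the 6 fell. Psmc4 (chr7:28041707-28050101, minus strand, GRCm38) had 28.1, 29.0, 28.4, 28.01 and 27.6 FPKM in hypoxia, against 43.3, 42.5, 40.0, 34.4 and 39.7 FPKM in controls. The hypoxia libraries lay within a narrow band below all controls (28.2 ± 0.504 and 40.0 ± 3.49 FPKM, SD, n = 5 each). The log2 fold change was -0.49 (SE 0.0716, limma adjusted p = 0.00333), and -0.48 without hypoxia replicates 4 and 5 (adjusted p = 0.00783). The coefficient of variation of Psmc4 in hypoxia, 1.79%, was the smallest of the 31 constitutive subunits, whose median was 6.86% in hypoxia and 6.54% in controls.

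Psmc5 had 46.9, 50.9, 50.7, 52.7 and 44.4 FPKM in hypoxia, against 57.1, 65.7, 61.2, 58.4 and 61.2 FPKM in controls. Its log2 fold change was -0.30 (SE 0.0735, limma adjusted p = 0.0267). Psmc2 had 15.2, 14.9, 15.7, 15.9 and 15.8 FPKM in hypoxia, against 17.9, 20.3, 19.5, 17.3 and 18.8 FPKM in controls, and changed by -0.26 on the log2 scale (SE 0.0601, limma adjusted p = 0.0212). For both genes every hypoxia library lay below every control library. The adjusted p without hypoxia replicates 4 and 5 was 0.0256 for Psmc5 and 0.0261 for Psmc2. Psmc5 lost its call without hypoxia replicate 1 or control replicate 1, 2, 3 or 5 (limma adjusted p 0.0502 to 0.0711). It also lost it when rescaled without the most abundant genes (0.0693) and with the replicate number as a block (0.0722). Psmc2 lost its call without control replicate 2, 3 or 5 (0.0501 to 0.0598) and with that block (0.0755). The other ATPase genes did not pass. Psmc1 had a log2 fold change of -0.27 (limma adjusted p = 0.119), Psmc3 of -0.12 (adjusted p = 0.306) and Psmc6 of 0.011 (adjusted p = 0.933). The groups of Psmc1 overlapped, with 35.0 to 50.6 FPKM in hypoxia and 50.1 to 57.2 FPKM in controls. Some reads of Psmc3 are uncertain, because it overlaps Slc39a13 on the opposite strand (6.49 FPKM in hypoxia, 7.04 FPKM in controls).

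**Figure D2:**
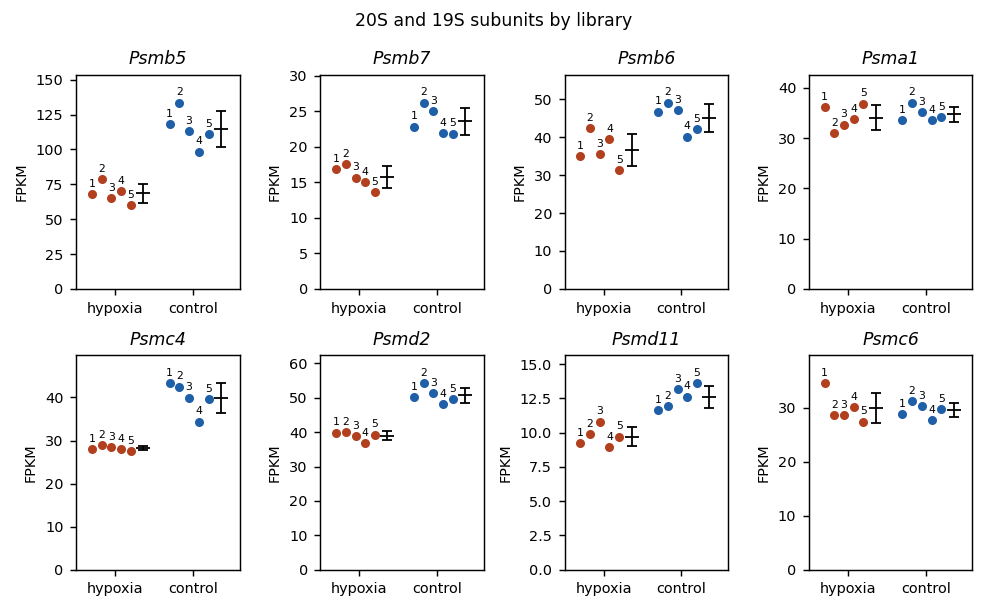
FPKM in each library (points, numbered by replicate) with the mean and SD beside each group (bars), for 8 genes of the 20S core and the 19S cap, on axes that start at 0. Psmb5, Psmb7, Psmc4, Psmd2 and Psmd11 show all 5 hypoxia libraries below all 5 controls, while the groups of Psmb6, Psma1 and Psmc6 overlap.

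The 19S subunits that are not ATPases bind ubiquitinated proteins, remove ubiquitin and hold the cap together, and 5 of the 11 among the 50 genes fell. All 11 had a negative log2 fold change as deposited, with a median of -0.20, and 9 of 11 were negative when rescaled without the most abundant genes (Psmd1 and Psmd4 turned positive). Psmd2 (chr16:20651652-20663414, plus strand, GRCm38) encodes the large scaffold subunit that docks ubiquitin-like proteins. It had 39.9, 40.0, 39.0, 36.8 and 39.3 FPKM in hypoxia, against 50.2, 54.2, 51.3, 48.2 and 49.7 FPKM in controls. The groups were well separated (39.0 ± 1.31 and 50.7 ± 2.25 FPKM, SD, n = 5 each), and the log2 fold change by limma was -0.38 (SE 0.0612, adjusted p = 0.00559), or -0.35 with hypoxia replicates 4 and 5 left out (adjusted p = 0.00799).

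Psmd11 (chr11:80428615-80473248, plus strand, GRCm38), a lid subunit that braces the cap on the core, had 9.25, 9.89, 10.8, 8.93 and 9.71 FPKM in hypoxia, against 11.6, 11.9, 13.2, 12.6 and 13.6 FPKM in controls. Its groups did not overlap, and the log2 fold change was -0.36 (SE 0.0695, limma adjusted p = 0.0109) and -0.32 without hypoxia replicates 4 and 5 (adjusted p = 0.0261). Psmd13, another lid subunit, had 19.5, 19.7, 18.1, 18.5 and 17.9 FPKM in hypoxia, against 26.6, 26.9, 22.0, 23.3 and 20.5 FPKM in controls. Its change of -0.34 on the log2 scale (SE 0.0839, limma adjusted p = 0.0303) did not pass without hypoxia replicates 4 and 5 (-0.31, adjusted p = 0.0702). Nor did it pass without hypoxia replicate 3 or 4 or control replicate 1, 2 or 4 (adjusted p 0.0513 to 0.0790). It also missed the threshold when rescaled without the most abundant genes (0.0600) and with no filter on low values (0.0652). Psmd13 holds the pseudogene Gm15542 on the same strand, which had 7.97 FPKM in hypoxia and 16.5 FPKM in controls, and it overlaps Sirt3 on the opposite strand, so its reads are uncertain.

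Psmd7, the inactive partner of the lid deubiquitinase, changed by -0.27 on the log2 scale (SE 0.0702, limma adjusted p = 0.0344), with 25.9 to 28.8 FPKM in hypoxia and 29.7 to 37.0 FPKM in controls. Its call held without hypoxia replicates 4 and 5 (adjusted p = 0.0387), and was lost without hypoxia replicate 1 or 3 or control replicate 1, 2, 3 or 5 (0.0668 to 0.0772). The call was also lost when rescaled (0.0715), with no filter on low values (0.0708) and with the replicate number as a block (0.0890). Psmd6, a lid subunit, also changed by -0.27 (SE 0.0709, limma adjusted p = 0.0363), with 25.5 to 28.2 FPKM in hypoxia and 28.7 to 35.6 FPKM in controls. The groups of both genes did not overlap. Psmd6 missed the threshold without hypoxia replicates 4 and 5 (limma adjusted p = 0.0549), and without each library in turn except hypoxia replicate 5 and control replicate 4 (0.0502 to 0.0899). The call of Psmd6 was also lost when rescaled (0.0802), with no filter on low values, and with the replicate number as a block (0.102). Psmd14, which encodes the deubiquitinase itself, had 17.8, 15.7, 16.5, 19.6 and 21.0 FPKM in hypoxia, against 19.1, 22.2, 19.2, 20.1 and 20.2 FPKM in controls. Hypoxia replicate 5 was inside the control range and replicate 4 above the lowest control, and the gene passed as lower only when both were left out, among the settings run (log2 fold change -0.27, adjusted p = 0.0402, against -0.15 and 0.264 with all libraries). Psmd8 did not pass (-0.20, limma adjusted p = 0.0723), although its groups did not overlap. Psmd1, Psmd3, Psmd4 and Psmd12 had log2 fold changes between -0.12 and -0.073 and did not pass. Psmd6, Psmd8 and Psmd14 were named after their values were seen.

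Of the 11 genes called lower, 10 showed no overlap between groups, and Psmd8 did so without a call. These 11 genes with all hypoxia libraries below all controls are 23.4% of the 47, where 8.54% of all tested genes had that order. With hypoxia replicates 4 and 5 left out, 16 of the 47 (34.0%) had it, beside 11.8% of the genes then tested. The calls of Psmb5, Psmb7, Psmc4, Psmd2 and Psmd11 held in each of 20 alternative settings. The count of genes called lower was 7 without hypoxia replicate 3, 6 without control replicate 1, 3 or 5, and 5 without control replicate 2. Over all tested genes, lower calls also dropped, from 1189 with all libraries to 850 without hypoxia replicate 3. They were 603, 679 and 743 without control replicate 1, 3 and 5, and 607 without control replicate 2.

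Ratios between genes inside a library do not depend on how libraries were scaled. The summed FPKM of the 7 alpha genes was 256 ± 7.99 in hypoxia and 260 ± 15.4 in controls (SD, n = 5 each). The 7 constitutive beta genes summed to 280 ± 11.1 FPKM in hypoxia and 351 ± 28.9 FPKM in controls, and the 17 genes of the 19S cap to 475 ± 15.6 FPKM in hypoxia and 559 ± 26.5 FPKM in controls. As a share of the alpha sum, the beta sum was 101% to 118% in hypoxia and 129% to 138% in controls, and the groups did not overlap. The 19S sum was 169% to 196% of the alpha sum in hypoxia and 210% to 222% in controls. Psmb5 by itself was 22.7% to 31.8% of the alpha sum in hypoxia and 40.3% to 46.8% in controls, and Psmb7 was 5.12% to 7.14% in hypoxia and 8.58% to 9.80% in controls. Without Psmb5 the remaining beta genes came to 78.3% to 88.3% of the alpha sum in hypoxia and 88.3% to 93.8% in controls, so the groups met at their edges. The transcripts of the proteasome were thus unequally changed within a library, whatever the scaling. The order of levels at the top was shared, with Psmb5, Psma6 and Psmb4 in ranks 1 to 3 of the 31 constitutive genes in both groups and Psmd11 in rank 31 in both. Psmc4 was at rank 18 in hypoxia and at rank 11 in controls.

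The assembly factors help to build the 20S core and the 19S base and are not part of the finished particle. None of the 7 passed, log2 fold changes ran from -0.14 for Psmg3 to 0.11 for Psmg4 with a median of 0.0034 for Psmd5, none had an unadjusted p under 0.05, and limma voom called 0. Psmg1, a chaperone of the alpha ring, averaged 15.7 ± 2.096 FPKM in hypoxia and 15.5 ± 1.51 FPKM in controls (SD, n = 5 each, limma adjusted p = 0.919). Psmg4, another chaperone of this ring, averaged 16.5 ± 2.29 FPKM in hypoxia and 15.2 ± 1.78 FPKM in controls (adjusted p = 0.513). Psmd10, a chaperone of the 19S base, was high in 1 library of each group. It had 5.60 FPKM in hypoxia replicate 4 and 5.06 FPKM in control replicate 4, and 0.149 to 0.238 FPKM in the other hypoxia libraries against 0.203 to 0.456 FPKM in the other controls. Those values rest on 146 reads in hypoxia replicate 4 and 135 in control replicate 4, and on 4 to 11 reads elsewhere. Of all 55952 genes measured, 6 had both replicate 4 libraries at 0.5 FPKM or more and over 3-fold above every other library. Psmd10 was the 1 protein-coding gene among them. The log2 fold change of Psmd10 was -0.13 with a standard error of 0.746 (limma adjusted p = 0.922), so a difference between groups was not detectable. Psmd9 overlaps Hpd on the opposite strand (41.1 FPKM in hypoxia, 9.17 FPKM in controls), and its level of 3.58 FPKM in hypoxia and 3.64 FPKM in controls is uncertain for that reason. The reads of Psmd5 are uncertain too, as it overlaps Cutal on the opposite strand (15.8 FPKM in hypoxia, 20.8 FPKM in controls).

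Activators other than the 19S cap bind the ends of the core and open its gate. Psme4, a large nuclear activator, was the 1 member of this group that fell. It had 24.3, 20.5, 21.8, 19.97 and 16.7 FPKM in hypoxia, against 26.6, 28.6, 25.8, 24.3 and 29.0 FPKM in controls. Hypoxia replicate 1 lay just above control replicate 4. Its change of -0.38 on the log2 scale (SE 0.0972, limma adjusted p = 0.0333) was -0.27 without hypoxia replicates 4 and 5 (adjusted p = 0.0613). It also missed the threshold without hypoxia replicate 3 or 4 or control replicate 1, 2, 3 or 5 (0.0525 to 0.0833). The same held when rescaled (0.0707), with no filter on low values (0.0720) and with the replicate number as a block (0.0849). Psme3, which encodes a nuclear activator ring, had 29.5, 28.4, 27.9, 26.7 and 43.0 FPKM in hypoxia, against 34.5, 36.7, 34.1, 33.3 and 33.0 FPKM in controls. Hypoxia replicate 5 lay above all other libraries and the remaining hypoxia libraries below all controls. Psme3 did not pass with all libraries (log2 fold change -0.16, limma adjusted p = 0.389), and passed as lower without hypoxia replicate 5 (-0.28, adjusted p = 0.00743) and without replicates 4 and 5 (-0.26, adjusted p = 0.0249). It was named after its values were seen.

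Psme1 and Psme2 encode the subunits of the interferon-inducible activator ring. Psme1 had 24.6, 25.4, 29.5, 32.1 and 47.9 FPKM in hypoxia, against 20.1, 23.6, 20.6, 22.7 and 20.3 FPKM in controls. Every hypoxia library lay above every control, yet the log2 fold change of 0.52 (SE 0.160) did not pass (limma adjusted p = 0.0613). Without hypoxia replicate 5 it was 0.36 and passed (adjusted p = 0.0205), as it did without hypoxia replicate 1 or 2 (0.60 and 0.59, adjusted p = 0.0498 and 0.0466) and when rescaled (0.60, adjusted p = 0.0380). Without replicates 4 and 5 it was 0.29, with an adjusted p of 0.05005 that just missed the threshold. Psme2 had 9.67, 12.0, 11.1, 16.5 and 18.9 FPKM in hypoxia, against 8.46, 9.15, 7.46, 10.1 and 12.4 FPKM in controls. The groups overlapped, and neither the log2 fold change of 0.48 (limma adjusted p = 0.125) nor that of 0.21 without hypoxia replicates 4 and 5 (adjusted p = 0.394) passed. Psmf1, an inhibitor of the core, averaged 6.08 ± 0.371 FPKM in hypoxia and 5.42 ± 0.398 FPKM in controls (SD, n = 5 each, limma adjusted p = 0.174). Psme2b was not tested, with 0 to 3 reads per hypoxia library and 0 in each control, where 3 reads correspond to 0.197 to 0.218 FPKM.

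The immunoproteasome subunits were highest in hypoxia replicate 5, lower but above all controls in hypoxia replicate 4, and within the control range in hypoxia replicates 1 to 3. Psmb8 had 1.74, 1.81, 1.71, 3.32 and 12.1 FPKM in hypoxia, against 2.08, 2.50, 1.602, 2.03 and 1.87 FPKM in controls. Psmb9 had 1.34, 2.12, 1.99, 3.40 and 12.3 FPKM in hypoxia, against 1.48, 2.21, 1.61, 1.47 and 1.09 FPKM in controls. Psmb10 had 6.73, 9.36, 6.81, 11.2 and 20.01 FPKM in hypoxia, against 7.99, 10.04, 7.33, 6.62 and 6.42 FPKM in controls. In all 3 genes hypoxia replicate 5 was the highest library and hypoxia replicate 4 the next, and the groups overlapped. None passed limma's test (adjusted p = 0.460 for Psmb8, 0.246 for Psmb9 and 0.364 for Psmb10), none had an unadjusted p under 0.05, and limma voom called 0. Without hypoxia replicates 4 and 5 the log2 fold changes were -0.15, 0.17 and -0.0067, against 0.50, 0.82 and 0.37 with all libraries. The myeloid marker sum given above was also highest in hypoxia replicate 5 and next in hypoxia replicate 4. The B cell sum had the same order, with 3.10 FPKM in hypoxia replicate 4 and 2.60 to 2.95 FPKM in replicates 1 to 3. T and NK cell markers (8 genes) had it too, with 114 FPKM in hypoxia replicate 5 and 6.66 FPKM in replicate 4. Their sums were 4.92 to 6.61 FPKM in hypoxia replicates 1 to 3 and 2.49 to 4.98 FPKM in controls. Psmb9 overlaps Tap1 on the opposite strand (5.37 FPKM in hypoxia, 2.03 FPKM in controls), and reads in their overlap are uncertain.

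Set against its constitutive counterpart in the same library, the mean share of each immunoproteasome subunit was larger in hypoxia, and the groups were apart for 2 of the 3 pairs. Psmb8 was 2.30% to 2.62% of Psmb5 in hypoxia replicates 1 to 3, 4.74% in replicate 4 and 19.98% in replicate 5, against 1.42% to 2.07% in controls. Psmb10 was 40.0% to 53.2% of Psmb7 in hypoxia replicates 1 to 3, 74.97% in replicate 4 and 147% in replicate 5, against 29.3% to 38.3% in controls. The groups of both ratios did not overlap. Psmb9 was 3.82% to 5.61% of Psmb6 in hypoxia replicates 1 to 3, 8.64% in replicate 4 and 39.2% in replicate 5, against 2.58% to 4.51% in controls, and these groups overlapped. The mean log2 ratio was 1.29 higher in hypoxia for Psmb8 to Psmb5, 1.26 for Psmb9 to Psmb6 and 0.98 for Psmb10 to Psmb7. These differences were 0.51, 0.48 and 0.49 without hypoxia replicates 4 and 5. In hypoxia replicates 1 to 3 the immunoproteasome genes were within the control range, and Psmb5 and Psmb7 were below it.

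**Figure D3:**
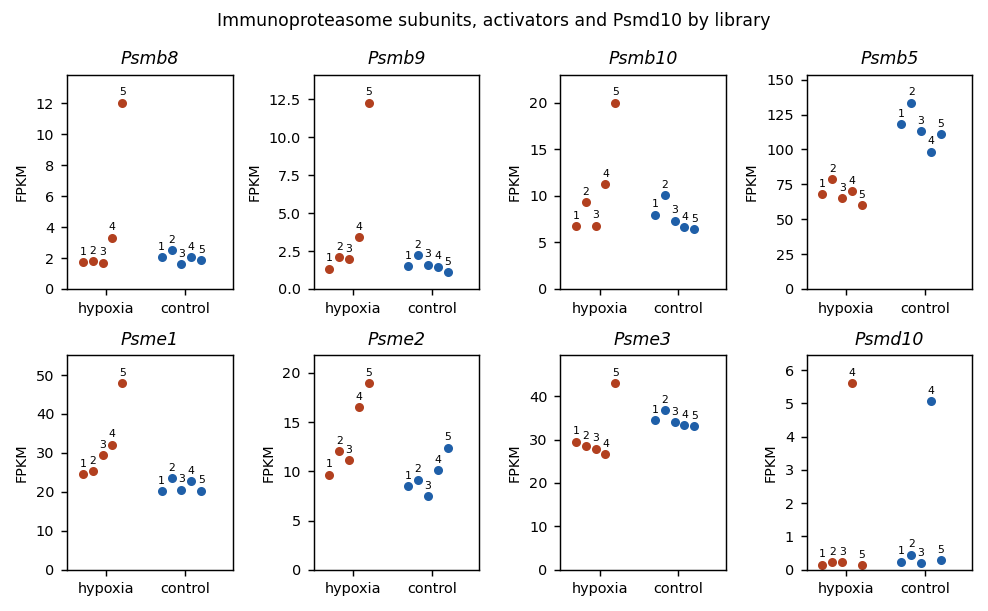
FPKM in each library (points, numbered by replicate) for the immunoproteasome genes Psmb8, Psmb9 and Psmb10, their constitutive counterpart Psmb5, the activators Psme1, Psme2 and Psme3, and Psmd10, on axes that start at 0. Hypoxia replicate 5 is the highest library for Psmb8 (12.1), Psmb9 (12.3), Psmb10 (20.01), Psme1 (47.9), Psme2 (18.9) and Psme3 (43.0), and Psmd10 is high in replicate 4 of both groups.

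The remaining genes of the name rule are rare in kidney or are not subunits. Psma8, an alpha subunit of the testis, had 2 to 10 reads per library in hypoxia and 1 to 9 in controls. Psmb11, a beta subunit of the thymus cortex, had 0 reads in all hypoxia libraries and at most 1 in a control, which allows a level of up to 0.0344 to 0.0381 FPKM where no read was seen. Neither was tested. Psmc3ip encodes a recombination factor that binds Psmc3 and shares its name only. It averaged 1.46 ± 0.528 FPKM in hypoxia and 1.71 ± 0.219 FPKM in controls (SD, n = 5 each, limma adjusted p = 0.425). Psmc3ip overlaps Mlx on the opposite strand (17.5 FPKM in hypoxia, 22.2 FPKM in controls), so its reads are uncertain.

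Partners of the 19S cap, its parts Adrm1 and Sem1, and the shuttles that bring ubiquitinated proteins to it were lower in part. Of 18 genes that bind or control the proteasome, 6 fell and 1 rose, beside 7.79% lower and 3.66% higher over all tested genes. Their median log2 fold change was -0.18. Adrm1, a ubiquitin receptor of the cap, had 13.0, 14.3, 12.2, 13.3 and 11.2 FPKM in hypoxia, against 17.3, 19.04, 16.7, 17.8 and 17.3 FPKM in controls. The groups did not overlap (log2 fold change -0.45, SE 0.0724, limma adjusted p = 0.00526). Ddi2 encodes the protease that activates NFE2L1, and it averaged 9.06 ± 0.895 FPKM in hypoxia and 12.3 ± 1.00 FPKM in controls (SD, n = 5 each), which is -0.43 on the log2 scale (limma adjusted p = 0.00990). Ubqln1, a shuttle, averaged 37.9 ± 2.24 FPKM in hypoxia and 48.3 ± 1.23 FPKM in controls (-0.35, adjusted p = 0.00839). The calls of these 3 genes held when any 1 library was left out. Rad23b, another shuttle, also fell (-0.21, limma adjusted p = 0.0364), as did Sem1, a small lid subunit (adjusted p = 0.0468), while Ecpas, which holds the cap and the core together, rose (0.21, adjusted p = 0.0406). Each of these 3 calls was lost in at least 7 of the 10 fits that leave out 1 library, with adjusted p up to 0.0911 for Rad23b, 0.110 for Sem1 and 0.106 for Ecpas. Without hypoxia replicates 4 and 5, 4 of the 18 fell and none rose, where 7.75% of all genes then tested fell and 4.53% rose. With all libraries, limma voom also called 4 lower and 0 higher, beside 1137 lower and 537 higher of 15264 tested genes. Rad23b kept its call without hypoxia replicate 3 or 5, Sem1 without hypoxia replicate 2 or 5, and Ecpas without hypoxia replicate 2 or 5 or control replicate 3. Sem1 and Ecpas were named after their values were seen.

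The transcription factors that induce proteasome genes did not pass. Nfe2l1 had 36.6, 46.9, 39.5, 39.1 and 34.3 FPKM in hypoxia, against 48.0, 48.3, 44.5, 53.9 and 38.8 FPKM in controls. The groups overlapped (log2 fold change -0.25, limma adjusted p = 0.154). Nfe2l2, which induces proteasome genes under oxidative stress, had 30.3, 30.7, 36.8, 36.4 and 28.9 FPKM in hypoxia, against 25.6, 25.8, 27.1, 30.9 and 26.7 FPKM in controls. It was not past the threshold (0.25, limma adjusted p = 0.0918), except without hypoxia replicate 5 (0.29, adjusted p = 0.0361).

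Among 17 genes of ubiquitin and its conjugation, 4 fell and 1 rose, beside 7.79% lower and 3.66% higher over all tested genes. Their median log2 fold change was -0.15. Vcp, the segregase that extracts ubiquitinated proteins for the proteasome, had 52.3, 52.2, 51.2, 50.7 and 47.9 FPKM in hypoxia, against 67.5, 75.3, 72.6, 62.7 and 68.5 FPKM in controls. The groups were far apart (log2 fold change -0.44, SE 0.0709, limma adjusted p = 0.00526). Nploc4, its cofactor, averaged 15.6 ± 0.569 FPKM in hypoxia and 19.4 ± 1.16 FPKM in controls (SD, n = 5 each, -0.30, limma adjusted p = 0.0122). Ubb, a polyubiquitin gene, had 283, 368, 328, 259 and 265 FPKM in hypoxia, against 444, 417, 420, 387 and 399 FPKM in controls (-0.47, limma adjusted p = 0.0277). Its groups did not overlap, though the call was lost without hypoxia replicate 1 or 4 or control replicate 1, 2, 3 or 5 (0.0557 to 0.0761). The gene that rose was Ube2d1, a ubiquitin-conjugating enzyme, with 6.98 ± 0.922 FPKM in hypoxia and 4.82 ± 0.488 FPKM in controls (SD, n = 5 each, log2 fold change 0.49, limma adjusted p = 0.0151). Leaving out hypoxia replicates 4 and 5, 3 of the 17 fell and 1 rose, where 7.75% of all genes then tested fell and 4.53% rose.

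None of 11 genes of peptide presentation and its inducers passed with all libraries, 2 were higher at an unadjusted p under 0.05, and limma voom called 1 (B2m, adjusted p = 0.0476). Their median log2 fold change was 0.54, and 0.17 without hypoxia replicates 4 and 5. B2m, the light chain of class I molecules, had 362, 352, 454, 827 and 1325 FPKM in hypoxia, against 247, 335, 239, 247 and 261 FPKM in controls. Every hypoxia library lay above every control, with a log2 fold change of 1.13 (limma adjusted p = 0.0573). Without hypoxia replicates 4 and 5 it was 0.55 and passed (adjusted p = 0.0281). It also passed without hypoxia replicate 1 (adjusted p = 0.0493), 2 (0.0364) or 5 (0.0375) and when rescaled (0.0449). H2-D1, a class I heavy chain, had 88.2, 100.4, 97.7, 153 and 298 FPKM in hypoxia, against 93.2, 106, 90.2, 95.0 and 80.8 FPKM in controls (0.50, limma adjusted p = 0.274), with hypoxia replicates 4 and 5 above all other libraries. Over these lists together, 10 of 46 genes fell and 2 rose, beside 7.79% lower and 3.66% higher over all tested genes.

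**Figure D4:**
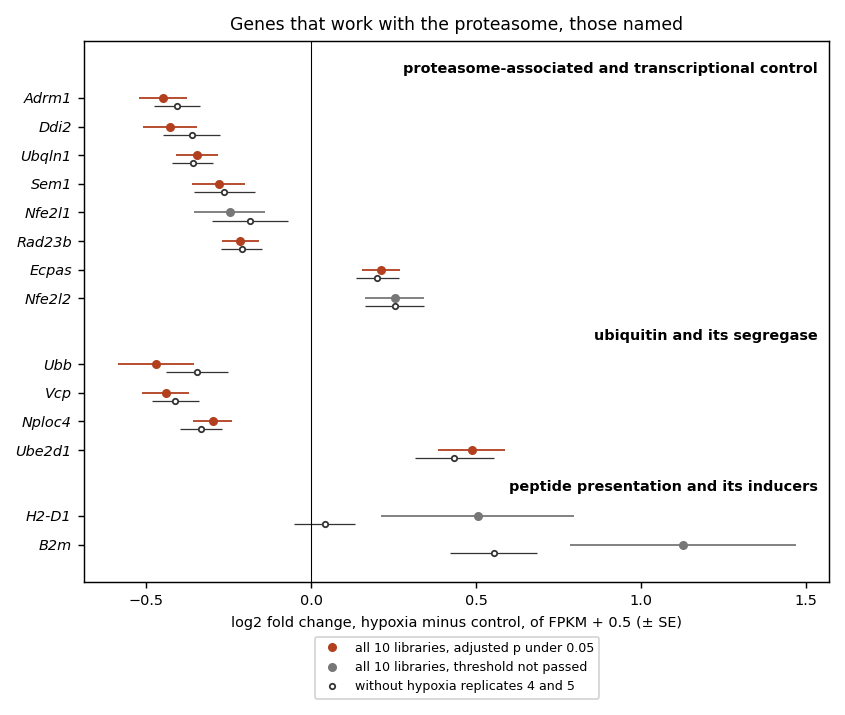
Log2 fold change of FPKM + 0.5, hypoxia minus control, with its standard error, for the 14 genes named here of the 46 that work with the proteasome, in 3 lists. Filled points use all 10 libraries (red where the adjusted p is under 0.05) and open points leave out hypoxia replicates 4 and 5. The red points are mostly negative in the upper lists, and the points of peptide presentation move toward 0 when the pair of libraries is left out.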

How the data were processed

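The transcriptomes of 10 kidney samples were sequenced, and groups come from the treatment label. Per the labels' protocols, RNA was extracted with Trizol and libraries were built with a TruSeq kit. That text speaks of retinas, whereas every sample is labelled kidney. The authors deposited FPKM for each gene in each sample, with the gene's length. HISAT2 2.0.5 was the aligner, per the submitters' processing notes, where a human build (hg38) is listed. Identifiers are those of the mouse, and all 50 proteasome genes have the coordinates of a GRCm38 annotation. How reads were counted, and whether by strand, is not given in the sources used here.

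Deposited values were not scaled further. The filter kept 15264 genes that averaged 0.5 FPKM or more. limma 3.58.1 (R 4.3.3) was fitted to log2(FPKM + 0.5) with group alone in the design, using lmFit and a robust eBayes with a trend. Tests were two-sided, and Benjamini-Hochberg adjusted values under 0.05 were called. The pseudocount understates the change of low genes. FPKM times length gave whole reads for 100% of values (tolerance 0.05), which were fitted with limma voom as an alternative added after the data were seen. The planned count model was not run on FPKM. Scripts were tested on simulated data. The naming rule takes up to 4 called genes per role or list by smallest p, the 2 most abundant of a role with no call, and a set of proteolytic, immunoproteasome, activator and regulator genes. Other genes are named to account for every member of a role. Some genes of the related lists and some promoter motifs searched are not reported here, and the counts of the lists include those genes. The genes and lists were chosen with earlier results of these data known. Of the 50 genes, 24 overlap another gene, 13 of them one of at least 0.5 FPKM. Plots were made in Python 3.11.15 with matplotlib 3.10.9.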

Additional observations from a re-analysis of the deposited data

Results flagged for a closer look

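Among 59 genes described (47 proteasome genes and others named above), 10 of 118 groups of 5 libraries had 1 library far from the rest by Dixon's test, where chance gives about 1 in 20. Hypoxia replicate 5 was high for Psmb8 (12.1 FPKM, others 1.71 to 3.32), Psmb9 (12.3 FPKM, others 1.34 to 3.40) and Psme3 (43.0 FPKM, others 26.7 to 29.5), and low for Psma4 (43.7 FPKM, others 51.6 to 54.5). Psmd10 was high in hypoxia replicate 4 (5.60 FPKM, others 0.149 to 0.238) and in control replicate 4 (5.06 FPKM, others 0.203 to 0.456). Psmb1 was high in control replicate 2 (25.4 FPKM, others 23.7 to 24.2), and B2m was high there too (335 FPKM, others 239 to 261). Psmf1 was low in control replicate 5 (4.73 FPKM, others 5.47 to 5.74), and Nfe2l2 was high in control replicate 4 (30.9 FPKM, others 25.6 to 27.1).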

How the results depend on the processing

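Over all genes, 1748 calls became 966 with no filter on low values, 999 with the replicate number as a block and 824 to 2724 when 1 library was left out. The number of proteasome genes called lower, 11 with all libraries as deposited, was 6 when rescaled without the most abundant genes, 7 with no filter, 6 with the replicate block and 5 to 13 without 1 library. Higher calls, 0 of 47, became 2 when rescaled, 1 at a mean of at least 2 FPKM, 1 with the block (Psme2, adjusted p = 0.0330 by limma) and 0 to 1 without 1 library. The median log2 fold change of -0.12 was -0.043 when rescaled and -0.13 to -0.090 without 1 library. The number of related genes called lower, 10 as deposited, was 6 when rescaled, 6 with no filter, 4 with the block and 5 to 11 without 1 library. The number called higher, 2 as deposited, was 1 with no filter, 1 without trend and robust, 1 with the block and 1 to 4 without 1 library. Fewer libraries and more genes under adjustment are part of how those settings are built, and for the rest the cause was not tested. Genes that did not pass changed sign in some settings. Psma4 was 0.055 when rescaled, 0.042 without hypoxia replicates 4 and 5, and -0.062 to 0.030 without 1 library, and Psmg1 was -0.017 to 0.11 without 1 library. Without hypoxia replicates 4 and 5, Psmb8 was -0.15 and Psmb10 -0.0067. TMM rescaling, both other pseudocounts and limma voom each left 11 proteasome genes lower and 0 higher. The TMM factors were 0.994 to 1.006, so this rescaling hardly changed the deposited values, and limma voom used TMM factors too. These settings are therefore no independent check of the scaling. Whether the replicate numbers pair the samples cannot be told from these values. Correlations of the deviations of same-numbered libraries ran from -0.0771 to 0.0861, while Psmd10 was high in both replicate 4 libraries. With 16561672 to 17845464 reads a library, genes of a few reads, such as Psma8, allow no comparison.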
